A study of Mus musculus with 2 samples.

Results

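Brg1 tags were measured at 8 loci of genes for the actin cytoskeleton and for targets of the transcription regulators Srf and Yap: Myh9, Actb, Acta2, Tagln, Tpm1, Ctgf, Cyr61 and Cav1. Each locus was an interval on the mm9 build that spans the gene, widened by 20 kb to each side. Together the 8 loci covered 501 windows of 1 kb, of which 500 were among the 2421806 of the genome with a tag, and contained 7416 of 13581267 ChIP tags (0.0546%) and 1765 of 5778620 input tags (0.0305%). The genes were proposed with the ChIP and input tags of these libraries already known, so the enrichment of the loci is given as a description, without a test. Ratios carry exact (Clopper-Pearson) 95% intervals, which cover counting error only.

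The 2 libraries came from primary embryonic fibroblasts of wild-type embryos at E13.5, on a mixed C57BL/6 and 129 background. Chromatin was released from nuclei with micrococcal nuclease, an enzyme that cuts the linker DNA between nucleosomes, and brief sonication. The Brg1 ChIP library was precipitated with a rabbit polyclonal antibody against SNF2β/BRG1, and the input library was made without an antibody. Each group had 1 library, so no value has a replicate check, and a library from cells lacking Brg1 was not analysed here. Primary fibroblasts of this kind are a mixed population of mesenchymal cells, and the labels do not say how many embryos were pooled. Tag positions do not report transcript levels, so the cell type could not be checked against marker expression.

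Brg1 is the motor of Swi/Snf, which uses ATP to slide or evict nucleosomes. Srf is held inactive when its cofactors of the myocardin family are bound by monomeric actin, and it activates genes of the contractile apparatus once actin polymerises. Yap enters the nucleus in spread, tense cells and acts through the DNA-binding Tead proteins. Fibroblasts on a stiff substrate are a classic setting for both pathways. Whether the 8 genes respond to Srf or Yap in these cells was not measured.

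Brg1 ChIP tags were above the scaled input at all 8 loci. On autosomes the ChIP library had on average 5.35 tags per kb and the input 2.27, so that 2.36 ChIP tags counted as 1 input tag, the ratio of the autosomal totals. Over the 8 loci the ChIP library had 14.8 tags per kb and the input 3.52, a ChIP/input ratio of 1.78 (1.69 to 1.88). Both libraries were thus denser than the autosomal mean at these loci, the ChIP 2.77 times and the input 1.55 times. The interval of the ratio lay above 1 in 8 of 8 loci; among 47627 autosomal windows of 50 kb this was so in 16.0%, and the median ratio of those windows was 0.909 (quartiles 0.769 and 1.11). No conclusion is drawn from this contrast, since the choice of the genes used it.

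The loci fell within a narrow range when taken whole. Cav1 was highest, at 927 tags against 188 over 76 kb, a ratio of 2.09 (1.79 to 2.46). Ctgf followed at 1.97 (1.63 to 2.40; 599 ChIP and 129 input tags), then Actb at 1.95 (1.65 to 2.32; 782 and 170), Myh9 at 1.89 (1.71 to 2.09; 2195 and 493) and Cyr61 at 1.86 (1.56 to 2.24; 654 and 149). Acta2 stood at 1.60 (1.35 to 1.90; 667 and 177), Tpm1 at 1.49 (1.31 to 1.70; 1071 and 305) and Tagln at 1.44 (1.20 to 1.73; 521 and 154). The intervals of neighbours in this order overlapped at every step. Between its ends they did not: those of Cav1 and Myh9 lay above that of Tpm1, and that of Cav1 also above that of Tagln. These separations depended on the settings. With scaling by the chromosome of the locus, Myh9 (1.68 to 2.05) and Tpm1 (1.33 to 1.72) overlapped. With 50 kb of widening Cav1 (1.61 to 2.03) and Tpm1 (1.55 to 1.89) overlapped. Without widening Cav1 (1.77 to 2.76) and Tagln (1.18 to 2.78) overlapped. The order is one of ratios, and the loci also differed in input density. Relative to the autosomal mean, Cav1 had the lowest input (1.09 times), with ChIP at 2.28 times. Tpm1 had the highest input (1.98 times), with ChIP at 2.95 times. ChIP density was highest in Myh9, at 3.37 times.

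**Figure D1:**
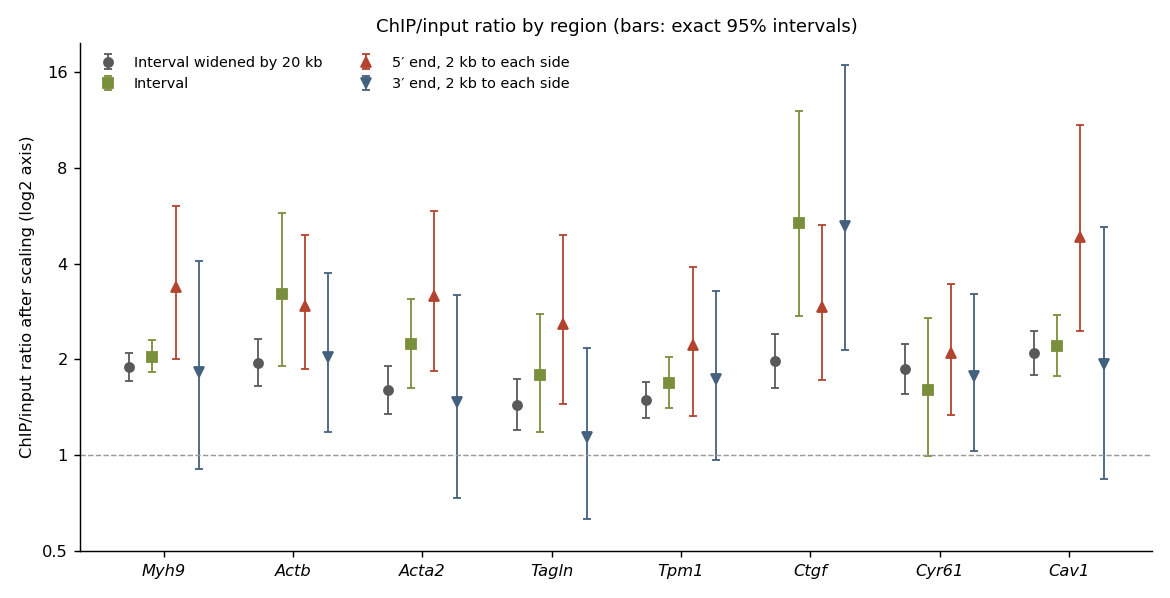
ChIP/input ratio (log2 axis) of each locus in the interval widened by 20 kb, the interval itself, and the 4 kb around its 5′ and 3′ ends; points are ratios after scaling and bars exact 95% intervals, with the dashed line at 1. The 5′ ends lie between 2.10 in Cyr61 and 4.86 in Cav1, and every bar at a 5′ end is above 1, while only 3 of the 8 bars at the 3′ ends are.

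The 5′ ends were the most enriched stretch shared by the 8 loci. Because the intervals are given to 1 kb, 2 kb to each side of the end were taken. Summed over the loci, these 4 kb stretches had 891 tags in the ChIP and 132 in the input library, a ratio of 2.86 (2.38 to 3.47). The 3′ ends held 427 and 97, a ratio of 1.87 (1.5 to 2.35), and 7 of 8 loci were higher at the 5′ end, Ctgf being the exception. The interval of the ratio lay above 1 at 8 of 8 of the 5′ ends and at 3 of 8 of the 3′ ends, against 5.65% of 561971 autosomal windows of 4 kb. Those windows were not chosen at gene starts, and the 5′ ends of other genes were not measured. The ratio itself was above 1 at 8 of 8 of the 3′ ends. With 1 kb to each side the 5′ end of Tpm1 was at 1.52 (0.825 to 2.97), so that the interval lay above 1 at the other 7. ChIP density at the 5′ ends was 5.21 times the autosomal mean, and input density was 1.82 times the mean, so the input did not dip below the mean there when the loci were summed. By locus the input ranged from 0.992 times the mean at the 5′ end of Cav1 to 2.53 times at that of Cyr61.

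Going away from the 5′ ends, the summed enrichment fell off within about 10 kb. In the 2 kb before the 5′ end the summed ratio was 2.56 (1.94 to 3.42), and in the 2 kb after it 3.12 (2.43 to 4.05). It was 2.84 (2.24 to 3.64) from 2 to 5 kb into the gene, 2.08 (1.74 to 2.51) from 5 to 10 kb and 1.5 (1.25 to 1.81) from 15 to 20 kb. Without Myh9 this last value was 1.18 (0.964 to 1.44), so it rested on that locus. On the upstream side the summed ratio was already 1.69 (1.35 to 2.12) at 2 to 5 kb, and 1.33 (1.05 to 1.71) there without Cyr61. Farther out it did not fall steadily. It was 1.54 (1.26 to 1.89) at 5 to 10 kb, 1.91 (1.73 to 2.12) at 40 to 60 kb and 1.51 (1.36 to 1.69) at 80 to 100 kb. The summed ratio thus declined over a shorter distance upstream than into the genes, although in the shorter genes the downstream side passes the 3′ end. From 20 to 100 kb beyond the intervals the ratio was 1.62 (1.54 to 1.71) on the upstream side and 1.32 (1.25 to 1.39) on the downstream side, summed over the loci. The interval lay above 1 in 7 of 8 upstream and 5 of 8 downstream flanks; downstream of Myh9 the ratio was 0.963 (0.761 to 1.22) and downstream of Ctgf 0.773 (0.661 to 0.907).

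**Figure D2:**
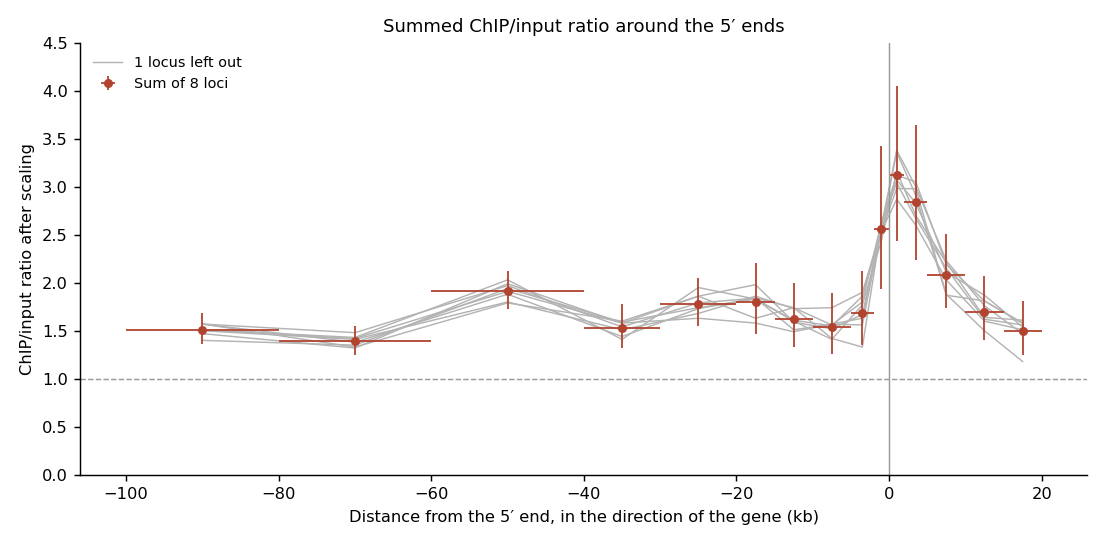
ChIP/input ratio, summed over the 8 loci, against the distance from the 5′ end in the direction of the gene (kb); horizontal bars are the width of each bin, vertical bars exact 95% intervals, and grey lines the sums with 1 locus left out. The ratio is highest at 3.12 in the first 2 kb of the genes and lies between 1.39 and 1.91 in the bins from 100 to 2 kb upstream.

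For 5 of the 8 genes RefSeq promoter sequences were at hand (build GRCm38.p6, not the build of the tags), each from 250 bases before to 50 bases after a gene start. They were searched on both strands for the CArG box, the site of Srf, for GGAATG, the site of Tead proteins, for the AP-1 site TGANTCA and for the TATA box TATAAA. The Tead site was found in the promoters of Acta2, Tpm1 and Cyr61, and in 14.7% of 32851 promoters of the same length. An exact CArG box was found in none of these 5 genes, and in 1.63% of all promoters. Actb, Tagln and Ctgf had no promoter entry and were not searched. With 1 mismatch allowed, Acta2 and Tpm1 each held 2 matches, and 21.1% of all promoters held at least 1. TGANTCA was found in none of the 5 genes (7.81% of all promoters), and TATAAA in Myh9, Cyr61 and 1 of 2 Cav1 entries (13.6% of all promoters). The TATAAA of Cyr61 was on the strand of the gene, at -25 to -20 from the start. Those of Myh9 (-123 to -118) and Cav1 (-221 to -216) were on the opposite strand. Matches to different motifs did not overlap. Printed next are the 250 bases before the start of Acta2, Tpm1 and Cyr61, which hold the matches, and of the upstream entry of Cav1, the gene with the highest ratio at its 5′ end, which holds neither GGAATG nor a CArG box with 1 mismatch. Capitals mark GGAATG on either strand and CArG boxes with 1 mismatch.
Acta2, chr19:34255374-34255623, minus strand: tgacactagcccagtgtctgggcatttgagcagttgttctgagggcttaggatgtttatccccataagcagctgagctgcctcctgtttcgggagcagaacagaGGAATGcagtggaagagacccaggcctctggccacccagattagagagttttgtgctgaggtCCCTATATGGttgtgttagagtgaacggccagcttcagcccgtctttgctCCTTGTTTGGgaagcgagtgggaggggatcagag
Tpm1, chr9:67049214-67049463, minus strand: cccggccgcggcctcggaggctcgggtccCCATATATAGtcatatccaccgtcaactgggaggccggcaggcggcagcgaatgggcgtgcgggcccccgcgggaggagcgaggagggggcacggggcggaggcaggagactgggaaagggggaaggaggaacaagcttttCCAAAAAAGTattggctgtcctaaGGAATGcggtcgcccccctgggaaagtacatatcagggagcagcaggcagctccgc
Cyr61, chr3:145649986-145650235, minus strand: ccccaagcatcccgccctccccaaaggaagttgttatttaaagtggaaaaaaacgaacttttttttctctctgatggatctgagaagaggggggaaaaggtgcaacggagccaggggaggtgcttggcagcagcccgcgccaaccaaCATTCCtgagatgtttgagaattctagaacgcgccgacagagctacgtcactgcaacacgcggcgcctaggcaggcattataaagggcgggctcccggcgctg
Cav1, chr6:17306085-17306334, plus strand: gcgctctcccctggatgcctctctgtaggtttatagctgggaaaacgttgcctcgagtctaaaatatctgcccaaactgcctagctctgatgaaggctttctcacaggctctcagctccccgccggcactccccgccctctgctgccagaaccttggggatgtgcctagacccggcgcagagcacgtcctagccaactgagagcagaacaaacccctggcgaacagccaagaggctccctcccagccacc

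The promoters also differed in base composition. Over the 300 bases, GC content was 54.7% in Acta2, 57.0% in Cyr61, 59.3% and 62.3% in the 2 entries of Cav1, 64.7% in Myh9 and 66.3% in Tpm1, against a median of 52.7% over all promoters. The ratio of observed to expected CpG was lowest in Acta2 at 0.270, below the median of 0.384, and highest in Tpm1 and Cyr61 at 0.823, above the upper quartile of 0.75. At their 5′ ends Acta2, Tpm1 and Cyr61 had ChIP/input ratios of 3.17 (1.84 to 5.85), 2.22 (1.33 to 3.90) and 2.10 (1.34 to 3.45), with overlapping intervals. Whether the ratio goes with base composition was not tested.

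Myh9 encodes the heavy chain of non-muscle myosin IIA, the motor that pulls on actin filaments. Its interval, chromosome 15 from 77590000 to 77671999, had 358 input tags over 82 kb and 1724 ChIP tags, or 2.04 times the scaled input (1.82 to 2.30). At the 5′ end 127 ChIP tags faced 16 input tags (3.37, 2.00 to 6.07). Enrichment was not limited to that end. A 5 kb stretch 18 to 23 kb into the gene, at 77649000 to 77653999, had 175 ChIP and 15 input tags (4.95, 2.92 to 9.04), the highest lower bound of all 5 kb stretches in this locus. A further block 32 to 42 kb into the gene had 303 and 48 (2.68, 1.97 to 3.71). The single 1 kb window with the highest lower bound, at 77631000 to 77631999, lay in that block: it held 38 ChIP tags, of which 23 were plus-strand tags, and no input tag. The exact lower 95% bound of its ratio was 4.16. With the input set to its mean over the surrounding 10 kb, the ratio was 2.91 (1.19 to 8.82).

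Actb encodes cytoplasmic beta-actin, itself a target of Srf. Its 5 kb interval on chromosome 5 (143664000 to 143668999) had 121 ChIP tags where the input had 16 (3.21, 1.90 to 5.79). ChIP tags were dense on both sides of the 5′ end: the 5 kb from 4 kb before it to 1 kb after it held 166 against 20 input tags (3.52, 2.21 to 5.92). Within this stretch the tags shifted strand, with 10 plus-strand and 26 minus-strand tags in the kb from 3 to 2 kb upstream, and 26 and 9 in the next kb towards the gene. Another dense kb lay 20 to 19 kb upstream, at 143688000 to 143688999, where 41 ChIP tags faced 2 input tags (8.70, 2.26 to 74.2). The upstream flank of 20 kb had 422 ChIP and 75 input tags (2.39, 1.86 to 3.09), and the downstream flank 239 and 79 (1.28, 0.992 to 1.68).

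Acta2 encodes smooth muscle alpha-actin, the marker of myofibroblasts. Its interval on chromosome 19 (34315000 to 34329999) had 252 ChIP tags where the input had 48 (2.23, 1.63 to 3.10), and the 5′ end 112 and 15 (3.17, 1.84 to 5.85). The 5 kb stretch with the highest lower bound, from 1 kb before to 4 kb after the 5′ end, had 136 against 14 (4.12, 2.37 to 7.74), with 67 plus-strand and 69 minus-strand ChIP tags. In the kb just before the 5′ end 32 ChIP tags faced 2 input tags (6.79, 1.73 to 58.5), and with the input at its 10 kb mean this fell to 4.38 (1.39 to 21.6). The downstream flank, which on GRCm38 holds the neighbour Stambpl1, was close to the input with 149 ChIP and 72 input tags (0.878, 0.659 to 1.18), and the upstream flank was above it with 266 and 57 (1.98, 1.48 to 2.68).

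**Figure D3:**
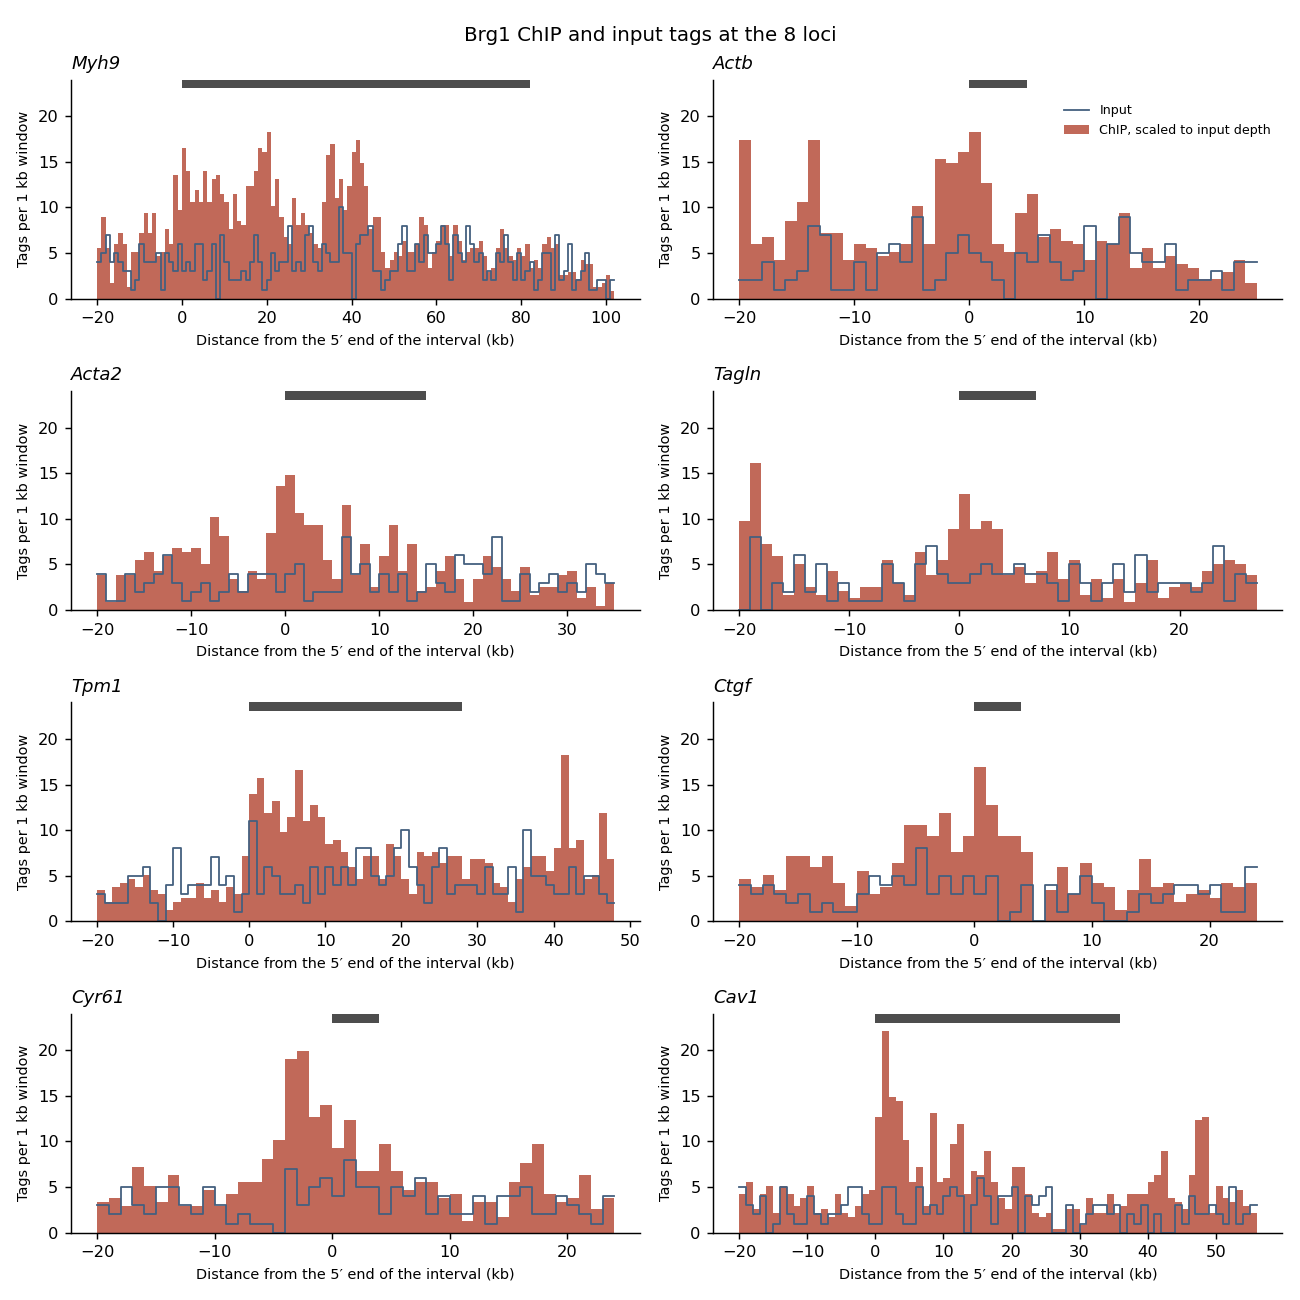
Tags per 1 kb window against the distance from the 5′ end of each interval, in the direction of the gene (kb); bars are ChIP tags divided by 2.36, the blue line input tags, and the dark bar at the top the interval. Cav1, Acta2, Tagln and Ctgf show a block of ChIP tags at or just after the 5′ end, Cyr61 a block before it, and Myh9 blocks along the first part of the gene.

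Tagln encodes transgelin (SM22), an actin-binding protein of smooth muscle and a standard Srf target. It had the lowest ratio of the loci taken whole. Its interval on chromosome 9 (45737000 to 45743999) held 122 ChIP and 29 input tags (1.79, 1.18 to 2.78). The 5′ end had 85 and 14 (2.58, 1.45 to 4.91) and the 3′ end, where Pcsk7 overlaps the gene on GRCm38, had 43 and 16 (1.14, 0.629 to 2.17). ChIP tags were densest at the gene in its first kb, with 30 against 3 input tags. The 5 kb stretch with the highest lower bound lay away from the gene, 20 to 15 kb upstream at 45759000 to 45763999, with 96 ChIP and 13 input tags (3.13, 1.75 to 6.10). On GRCm38 the gene Sidt2 lies within 20 kb on that side.

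Tpm1 encodes alpha-tropomyosin, which lies along actin filaments. Its interval, chromosome 9 from 66870000 to 66897999, held 587 ChIP and 147 input tags (1.69, 1.41 to 2.04). Here ChIP tags changed sharply at the 5′ end. The 5 windows of 1 kb before it held between 5 and 17 ChIP tags, and the 5 after it between 23 and 37. The input held 7, 4, 5, 1 and 3 tags in the windows before and 11, 3, 6, 5 and 3 in those after. In the first kb of the gene, 33 ChIP tags thus faced 11 input tags, and the input rose there too. The upstream flank of 20 kb was not enriched, with 161 ChIP and 74 input tags (0.923, 0.697 to 1.23), and it held the lowest 1 kb window of all loci by upper bound, at 66907000 to 66907999, with 5 ChIP and 8 input tags (0.265, 0.0683 to 0.920). Inside the gene the 5 kb from 3 to 8 kb had 146 and 17 (3.64, 2.20 to 6.43). The input was also high in this gene, at 5.25 tags per kb or 2.31 times the autosomal mean. Beyond the 3′ end a window 41 to 42 kb from the 5′ end had 43 ChIP and 3 input tags (6.08, 1.95 to 30.6; 4.01, 1.54 to 13.9, with the input at its 10 kb mean). No other protein-coding gene lies within 20 kb of Tpm1 on GRCm38.

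Ctgf (now Ccn2) and Cyr61 (now Ccn1) encode secreted matricellular proteins and are the usual readouts of Yap activity. Ctgf, on chromosome 10 from 24315000 to 24318999, had the highest ratio over an interval, with 114 ChIP and 9 input tags (5.38, 2.73 to 12.1). Its input density over those 4 kb was 0.992 times the autosomal mean, whereas the flanking 2 kb on either side of the 5′ end together had 16 input tags (2.92, 1.72 to 5.28, with 110 ChIP tags). The enriched stretch reached upstream: the flank of 20 kb before the gene had 303 and 69 tags (1.86, 1.43 to 2.46). Farther out Ctgf lay in the least enriched surroundings of the 8. From 20 to 100 kb upstream the ratio was 1.18 (1.00 to 1.39), and the downstream flank at the same distance held 452 ChIP and 248 input tags. Among the 16 such flanks it was the only one whose interval lay below 1.

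Cyr61 had its densest tags before the gene. Its interval on chromosome 3 (145309000 to 145312999) held 83 ChIP and 22 input tags (1.60, 0.991 to 2.69), the lowest of the 8, and it was the only locus whose upstream flank had a higher ratio than the gene and the 5′ end, 2.27 (1.73 to 3.01; 342 ChIP and 64 input tags). The 5 kb stretch with the highest lower bound, at 145315000 to 145319999, lay 7 to 2 kb before the 5′ end, with 148 ChIP and 12 input tags (5.23, 2.91 to 10.4), 70 of the ChIP tags plus-strand and 78 minus-strand. From 5 kb to 1 kb upstream the 4 windows held 24, 45, 47 and 30 ChIP tags and 0, 7, 3 and 5 input tags. The first 4 kb of the gene held 22, 29, 16 and 16 ChIP tags, and 4, 8, 5 and 5 input tags. Like Ctgf, Cyr61 has no other protein-coding gene within 20 kb on GRCm38.

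Cav1 encodes caveolin-1, the coat protein of caveolae, the membrane pits that flatten under tension. It had the highest ratio at a 5′ end, with 103 ChIP and 9 input tags over 4 kb (4.86, 2.46 to 10.9). The value depended on the width: it was 8.70 (2.26 to 74.2) with 1 kb to each side and 3.0 (2.04 to 4.55) with 5 kb, where Actb was at 2.84 (2.03 to 4.07) and Ctgf at 2.83 (2.00 to 4.12). With 2 kb to each side the input at this 5′ end was the lowest of the loci, at 0.992 times the autosomal mean. ChIP density there was 25.8 tags per kb, above only Tpm1 (23.5) and Tagln (21.2), and Actb was highest at 36.5. The block lay on the gene's side of the 5′ end: the 5 windows before the 5′ end held between 4 and 11 ChIP tags, and the 5 after it 30, 52, 35, 34 and 24, against 1, 5, 5, 2 and 1 input tags. Together those 5 kb, at 17256000 to 17260999 on chromosome 6, had 175 and 14 (5.30, 3.08 to 9.90), with 87 plus-strand and 88 minus-strand ChIP tags. On GRCm38 Cav1 has 2 promoter entries, whose 250 bases before the start end at 17306334 and 17307639. Neither start was placed on mm9, so the block was not set against the start farther into the gene. The downstream flank of 20 kb was enriched again with 240 ChIP and 37 input tags (2.75, 1.94 to 4.0), while the upstream flank, on the side of Cav2, had 168 and 51 (1.40, 1.02 to 1.95). The input was thin downstream, at 0.816 times the autosomal mean, and 5 of the 51 windows of 1 kb of this locus that held at least 10 tags had no input tag.

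In the 4 genes of at least 15 kb, enrichment was graded along the gene. When Myh9, Acta2, Tpm1 and Cav1 were each divided into 3 equal parts, the first part had a summed ratio of 3.13 (2.70 to 3.66), the middle part 1.78 (1.54 to 2.06) and the last part 1.23 (1.06 to 1.44). The first part was above the last in 4 of 4 genes. In Myh9 the values were 3.15 (2.56 to 3.91), 1.99 (1.64 to 2.43) and 1.22 (0.992 to 1.5), with ChIP densities of 27.7, 22.0 and 13.4 tags per kb. In Cav1 they were 3.45 (2.44 to 5.03), 1.86 (1.30 to 2.73) and 0.963 (0.598 to 1.59), and in Tpm1 2.70 (1.96 to 3.80), 1.37 (0.997 to 1.92) and 1.16 (0.838 to 1.62). Acta2 departed from this order, with 3.55 (2.03 to 6.69), 1.35 (0.819 to 2.33) and 2.22 (1.22 to 4.38). Input density did not fall along the genes: summed, it was 3.65, 4.43 and 4.08 tags per kb.

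**Figure D4:**
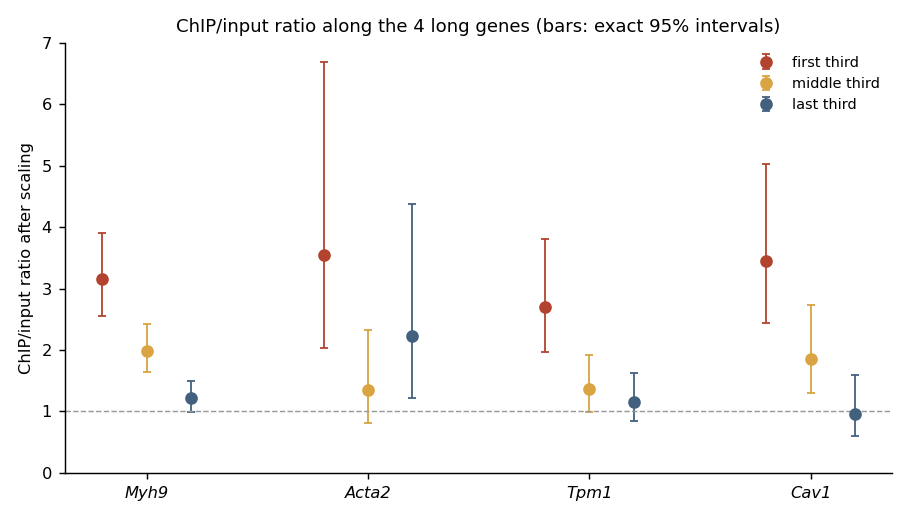
ChIP/input ratio in the first, middle and last of 3 equal parts of the 4 genes of at least 15 kb, counted from the 5′ end; points are ratios after scaling, bars exact 95% intervals, and the dashed line is at 1. The first part lies between 2.70 and 3.55 in the 4 genes, and the last part between 0.963 and 2.22.

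In 1 kb windows few calls were made, and their number depended on the settings, as given below. Windows with at least 10 tags in both libraries together were compared over the whole genome with an exact binomial test, and called where the ratio reached 1.5 with an adjusted p below 0.05. Of 417 such windows in the 8 loci 6 were called higher, 4 in Myh9, 1 in Actb and 1 in Cyr61; genome-wide the share was 0.380% of 706215. None was called lower in the loci, against 0.00666% genome-wide. In Myh9 the called windows lay 8 to 9, 19 to 20, 20 to 21 and 40 to 41 kb into the gene. In Actb the called window lay 20 to 19 kb upstream and in Cyr61 3 to 2 kb upstream, with 47 ChIP and 3 input tags. By ratio alone, 185 of the 417 windows had a ratio of at least 2 (24.9% genome-wide) and 235 a ratio of at least 1.5 (38.6% genome-wide). A window with no input tag counted as reaching both ratios. In windows of 10 kb, a width chosen after the data were seen, 22 of 50 were called higher (3.98% genome-wide) and 0 lower (1.11% genome-wide), and each locus had at least 1. Of these 6 were in Myh9, 4 in Cav1, 3 each in Actb and Ctgf, 2 each in Acta2 and Tpm1, and 1 each in Tagln and Cyr61. These counts describe loci that were chosen on the same contrast, and nothing is read from their distance to the background.

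Repeated tags were more frequent at the loci than elsewhere in the ChIP library. A second tag was listed at 117 of 7298 ChIP positions, or 1.60% (Clopper-Pearson 95% interval 1.33 to 1.92), against 0.822% in the whole library; the loci also had 2.77 times the autosomal density of ChIP tags. The input listed a second tag at 2 of 1765 positions, 1 in Tagln and 1 in Tpm1, since on the chromosomes of the other 6 loci it lists at most 1 tag per position. With at most 1 tag per position and strand in both libraries, the summed ratio was 1.77 for the loci and 2.83 for the 5′ ends.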

How the data were processed

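The deposited files hold counts: for each library, chromosome, strand, position and the count of tags there, with no normalization recorded. The submitters' processing notes name Bowtie and mm9; versions, settings and the filter on repeated tags are not given in the sources used here. Whether listed positions start at 0 or 1 is not stated.

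Tags were moved 75 bp along their strand and counted in the 8 intervals and in windows, with ChIP scaled by autosomal totals. Genome-wide windows were compared by the exact binomial test, two-sided (2 times the smaller tail), with Benjamini-Hochberg adjustment over all tested windows, which compares the tags of 2 libraries, not conditions. Positions of 5′ ends are the interval ends, by the gene's strand, which the promoter table bore out for 5 of 5 genes it holds. For the ratio of a single window with no input tag, a floor of 3 input tags was used. The window test and the counts by ratio alone used no floor. Every gene was named, with the 1 kb window of highest lower bound in each locus; the 5 kb stretches, the 3 parts of long genes, the distance profile and the far flanks were added after the data were seen. The members and lists were chosen with earlier results of these data known. Other Srf and Yap targets were not analysed here, since no annotation on mm9 was used. Neighbouring genes come from RefSeq's GRCm38.p6 gene order.

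The window test was tested on simulated counts in 1 kb windows (753844 tested), with 200 windows raised at each fold and the rest not raised. It called 0% of windows raised 2-fold, 10.0% of those raised 4-fold and 85.0% of those raised 8-fold. In the data 2684 windows were called, far more than in the simulation. The adjusted p depends on how many windows are raised, so these shares do not carry over to the data. Python 3.11.15, numpy 2.4.6, scipy 1.17.1, pandas 2.3.3, numba and matplotlib 3.10.9 were used.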

Additional observations from a re-analysis of the deposited data

How the results depend on the processing

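The ratio of the 8 loci summed, 1.78, was 1.92 with background scaling, 2.05 without widening and 1.67 with 50 kb of widening; it stayed inside its interval under the other 14 alternatives, 1.74 to 1.84 with 1 locus left out. The summed ratio of the 5′ ends, 2.86, stayed inside its interval under all 16 alternatives, from 2.48 with 5 kb to each side to 3.09 with background scaling, and 2.72 to 3.03 with 1 locus left out. Of 72 values for single loci 66 stayed inside their intervals; without widening Ctgf moved to 5.38, Actb to 3.21, Acta2 to 2.23 and Tagln to 1.79, and with 50 kb Ctgf moved to 1.47 and Tpm1 to 1.71. At single 5′ ends all 64 values stayed inside their intervals, yet with 1 kb to each side Acta2 rose to 4.74 and Cav1 to 8.70 and Tpm1 fell to 1.52, and with 5 kb Cav1 fell to 3.0. Of the windows named in each locus, that of Myh9 left its interval, at 2.91 once its input was raised to the 10 kb mean around it; under that setting the intervals of the Tagln and Ctgf windows included 1, at 3.15 (0.965 to 15.8) and 3.33 (0.970 to 18.8).

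The 6 called windows of the loci (2684 genome-wide) depended strongly on the settings: there were 0 (9) with 500 bp windows, 20 (7418) with 2000 bp windows, 22 (9952) with 10 kb windows, 2 (2699) with the grid moved by 500 bp, 38 (15946) with a minimum of 20 tags, 1 (715) with no minimum, 15 (5417) with background scaling, 2 (394) with 1 tag per strand within 5 bp, and 0 (35) when the input could not fall below the mean of the 10 kb around it. The loci's share of calls was 0.480% against 0.382% genome-wide with the moved grid, which is near the background. With the minimum of 20 tags it was 20.3% of 187 against 19.4% of 82067 genome-wide. That minimum counts ChIP and input tags together. With no minimum, 500 windows of the loci and 2421806 genome-wide were tested. The 2 shares at the minimum of 20 are thus among windows already dense in tags, and nothing is read from their nearness. Fewer or more tests enter the adjustment with the minimums; the cause was not tested for the others. The 10 kb windows and the leaving out of loci at the 5′ ends were added after the data were seen. Depth limits single windows: with no input tag, at least 27 ChIP tags were needed for a call. No paired analysis was possible because there is only 1 ChIP and 1 input library.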
